A study of Saccharomyces cerevisiae with 7 samples.

Results

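PMA1, HXT1 and FCY2 encode a proton pump, a glucose transporter and a purine-cytosine permease of the yeast plasma membrane. They are 3 of the 337 genes with a readthrough index in this GRO-seq series. GRO-seq sequences the RNA that engaged polymerases extend in a run-on reaction, here labelled with BrUTP for 5 min at 30 °C in budding yeast cells. The cells had been grown in YPD, a glucose-rich medium, at 30 °C to an A600 of 0.8. Both strains have the BY4733 background, with deletions in HIS3, TRP1, LEU2, MET15 and URA3. The mutant carries the sua7-1 allele of TFIIB, in which a glutamic acid is replaced by lysine, and was compared with wild type (WT) cells. There are 3 sua7-1 libraries (replicates 2, 3 and 4) and 4 WT libraries (replicates 1 to 4). The methods name 3 biological replicates of each strain, fewer than the 4 WT libraries listed. The labels do not resolve this or tie a library to a culture, so part of the spread between libraries may be technical. The 3 genes were taken by name as a functional group, and this group was chosen by someone who knew the readthrough values of the same libraries. The differences between strains for these genes are therefore given as a description, without a test.

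The readthrough index (RTI) is a ratio of 2 read numbers, those from 50 to 500 nt downstream of the mRNA 3' end and those in the mirror window upstream of it. An RTI of 0.01 means 1 read downstream per 100 upstream. The poly(A) signal in the nascent RNA is where cleavage and termination factors act, and polymerases that pass it without being released give reads in the downstream window. TFIIB is a general transcription factor that links the promoter to RNA polymerase II, and the study asked whether it also affects termination. The files hold the ratio and not the reads behind it, so the depth of a value is unknown. The paper kept mRNAs of 500 nt or longer with 1 or more reads per nucleotide of coding sequence, which sets only a floor. The SD given is the spread between libraries, whereas a standard error comes from a fit that shares the spread over all genes.

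Pma1 is the P-type ATPase that pumps protons out of the cell and sets up the gradient that drives most nutrient uptake. Its gene is among the most strongly transcribed in growing yeast. Hxt1 is a low-affinity glucose transporter whose gene is induced at high glucose. Fcy2 takes up adenine, guanine, hypoxanthine and cytosine together with protons, so that its work depends on the gradient made by Pma1. All 3 are multi-pass membrane proteins encoded by single-exon genes.

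The genes share a layout that the choice by name did not use, though the authors' selection did in part. The paper kept genes whose next gene on the same strand lies 500 nt or more beyond the 3' end. A gap on that strand is therefore largely given. In the RefSeq annotation of S. cerevisiae R64, PMA1 (YGL008C) lies on chromosome VII from 479910 to 482666, HXT1 (YHR094C) on chromosome VIII from 290913 to 292625 and FCY2 (YER056C) on chromosome V from 266512 to 268113. All are on the reverse strand, with coding lengths of 2757, 1713 and 1602 nt. None has an annotated gene on either strand within 500 nt after its stop codon. Among the 331 measured genes found in the annotation, 220 (66.5%) have an opposite-strand gene within that distance, and 83 have no gene there on either strand. The next gene on the same strand is LEU1 after 1257 nt for PMA1, HXT4 after 2101 nt for HXT1 and HIS1 after 726 nt for FCY2. The next gene on the opposite strand is MPO1 after 3840 nt, AHT1 after 1222 nt and JHD1 after 10377 nt, respectively. Of these 6 neighbours only LEU1, encoding isopropylmalate isomerase of leucine synthesis, was measured. All these distances start at the stop codon. The downstream window of the RTI ends 500 nt past the mRNA 3' end and so reaches farther. Whether the window of FCY2, with HIS1 only 726 nt after its stop codon, takes in transcription of HIS1 was not tested.

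Each gene has a paralog whose 3' coding end is similar, which matters because the upstream window, the divisor of the RTI, lies there at least in part. Over the 450 coding bases up to and including the stop codon, PMA1 is 83.6% identical to PMA2, HXT1 is 85.6% identical to HXT3 and FCY2 is 89.3% identical to FCY22, the closest gene in its list in each case. The longest exact run shared with that paralog inside these bases is 29 nt for PMA1, 44 nt for HXT1 and 107 nt for FCY2, where the run begins at the edge of the bases compared and may extend beyond it. The runs are printed below 5' to 3' on the coding strand of R64, in capitals, with up to 10 coding bases of the member on each side in lower case, because reads inside them could belong to either copy.
PMA1 (chrVII:480099-480147, reverse strand): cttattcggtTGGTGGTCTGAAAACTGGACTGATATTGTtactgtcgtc
HXT1 (chrVIII:291102-291165, reverse strand): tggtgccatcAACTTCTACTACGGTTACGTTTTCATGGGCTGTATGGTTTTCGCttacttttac
FCY2 (chrV:266845-266961, reverse strand): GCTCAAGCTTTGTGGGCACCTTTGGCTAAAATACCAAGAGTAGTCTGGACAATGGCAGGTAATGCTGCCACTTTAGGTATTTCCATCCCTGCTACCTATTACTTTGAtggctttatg
The sources used here do not say how reads that match more than 1 gene were placed, so the RTI of all 3 genes is uncertain to that extent. HXT5, less alike overall at 72.8%, shares a longer run of 59 nt with HXT1. HXT3 was measured, and PMA2 and FCY22 are not among the 337 genes.

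Letters of known 3' end signals were searched on the coding strand in the 300 bases after each stop codon, since the readthrough measured here is past the poly(A) site. TATATA and its variants TACATA as well as TATGTA are forms of the efficiency element, whereas AATAAA is a form of the positioning element of yeast poly(A) signals. TATATA was found after 64.7% of the 331 genes, TACATA after 30.2%, TATGTA after 34.7% and AATAAA after 46.2%. FCY2 holds 1 TATATA and 2 AATAAA, HXT1 holds 1 TACATA, and PMA1 holds none of the 4 in this window. The sites are printed with the matched letters in capitals, the FCY2 AATAAA being the one nearer the stop codon, 93 nt after it. The TATATA of FCY2 begins 156 nt after the stop codon and the TACATA of HXT1 238 nt after it.
FCY2 TATATA (chrV:266339-266368, reverse strand): taatctctatggTATATAcaaaacttcaaa
FCY2 AATAAA (chrV:266402-266431, reverse strand): gacatctcatttAATAAAaatagctacaaa
HXT1 TACATA (chrVIII:290658-290687, reverse strand): acataggcgctaTACATAgttcaaacgccc
The genes thus differ in these letters, and an absent match says only that the letters are not in the window. The A and T content of the same 300 bases is 71.0% for PMA1, 69.7% for HXT1 and 67.0% for FCY2, against a median of 70.0% over the 331 genes.

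TFIIB acts at promoters, so the 250 bases before the start codon were searched for TATAAA and TATATA on the coding strand, which overlap one another in part. TATAAA was found before 32.0% of the 331 genes and TATATA before 38.4%. HXT1 holds 2 TATAAA and 2 TATATA, FCY2 holds 3 TATAAA and no TATATA, and PMA1 holds neither. The window is counted from the start codon and not from the transcription start. An absent match thus says only that the letters are not in the window. The paper reports no link between its termination phenotype and a TATA box. The TATAAA farthest from the start codon is printed for HXT1, where it begins 113 nt before it and overlaps both TATATA matches, and for FCY2, where it begins 176 nt before it.
HXT1 TATAAA (chrVIII:292721-292750, reverse strand): attgaaattataTATAAAggcaacaatgtc
FCY2 TATAAA (chrV:268272-268301, reverse strand): taatggttttaaTATAAAtatccattaaaa

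WT replicate 4 gives no value for any of the 3 genes, which leaves 3 libraries of each strain. That library has an RTI for 38 genes, against 325 to 336 in the other WT libraries and 314 to 337 in the sua7-1 libraries. By systematic name, 37 of its 38 genes lie on the forward strand and 1 of the 171 measured reverse-strand genes has a value in it. The median RTI was 0.0414 to 0.0850 in the sua7-1 libraries and 0.00349 to 0.0150 in the WT libraries. WT replicate 1 has the highest median of the 3 WT libraries used for the members (0.0142), and sua7-1 replicate 2 has the lowest of the mutant libraries.

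PMA1 had the lowest RTI of the 3 genes in both strains and the largest difference between strains as a ratio. Its RTI was 0.00682, 0.00122 and 0.00288 in WT replicates 1, 2 and 3 and 0.0241, 0.0538 and 0.0459 in sua7-1 replicates 2, 3 and 4. The strains did not overlap, and the lowest mutant value was 3.54 times the highest WT value. The mean was 0.00364 ± 0.00288 (SD, n = 3) in WT and 0.0413 ± 0.0154 (SD, n = 3) in the mutant, a ratio of 11.3. On the log2(RTI + 0.002) scale, which understates changes of low values, the difference was 2.99 (standard error 0.56). With a pseudocount of 0.01 it was 1.88. Per 100 reads upstream, the downstream reads thus numbered 0.12 to 0.68 in WT and 2.41 to 5.38 in the mutant.

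HXT1 had a higher RTI than PMA1 in both strains, and a higher RTI in the mutant than in WT. In WT replicates 1, 2 and 3 the RTI was 0.0972, 0.0219 and 0.0365, and in sua7-1 replicates 2, 3 and 4 it was 0.184, 0.271 and 0.232. The mutant values were all higher, with WT replicate 1 high and the other WT libraries well below it. The lowest mutant value was 1.90 times the value of WT replicate 1. The mean was 0.0519 ± 0.0399 (SD, n = 3) in WT and 0.229 ± 0.0435 (SD, n = 3) in the mutant, a ratio of 4.42. The log2 difference was 2.34 (standard error 0.59), and it ranged from 1.89 to 2.91 when each library was left out in turn.

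FCY2 had the highest WT RTI of the 3 genes and the smallest difference between strains as a ratio. As a difference of mean RTI it was 0.0524, against 0.0376 for PMA1 and 0.177 for HXT1. Its RTI was 0.132, 0.106 and 0.155 in WT replicates 1, 2 and 3, so that more than 10 reads were counted downstream for each 100 upstream. In sua7-1 replicates 2, 3 and 4 it was 0.202, 0.177 and 0.172. Each mutant library was above each WT library, but the gap between the closest libraries was 0.0166, less than the SD of the WT libraries. The mean was 0.131 ± 0.0249 (SD, n = 3) in WT and 0.183 ± 0.0161 (SD, n = 3) in the mutant, a ratio of 1.40. The log2 difference of 0.49 was close to its standard error of 0.47, which the fit draws in part from the spread of all genes. The pooled SD of the log2 values of FCY2 alone was 0.21, against 0.66 for PMA1 and 0.76 for HXT1.

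**Figure D1:**
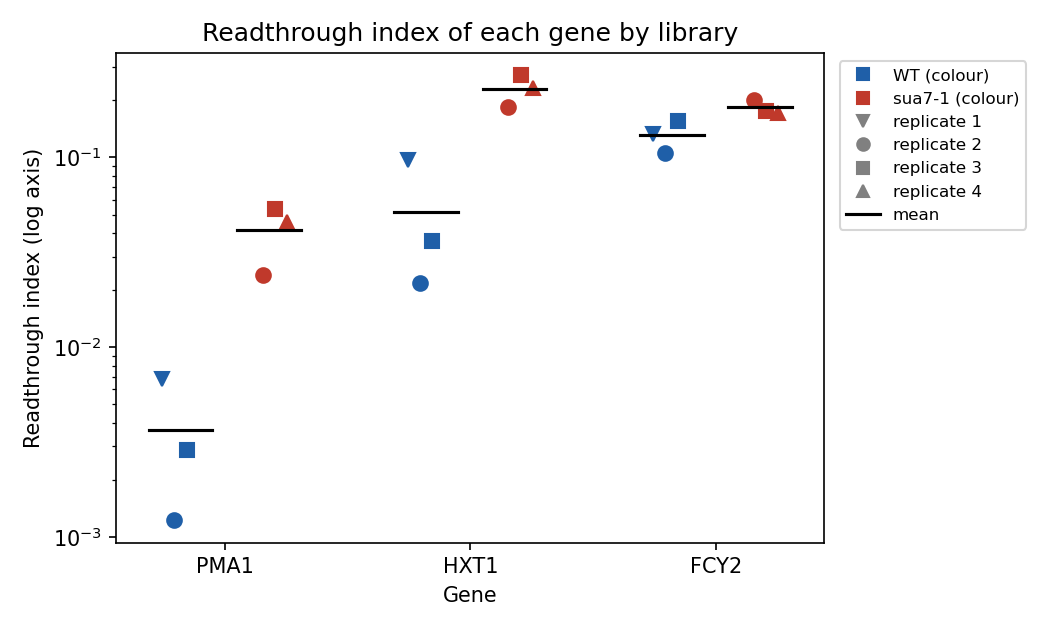
Readthrough index (log axis, no unit) of PMA1, HXT1 and FCY2 in each library, WT in blue and sua7-1 in red, with a marker shape per replicate number and a black line at the mean of 3 libraries. The strains are far apart for PMA1 (means 0.00364 and 0.0413) and close for FCY2 (means 0.131 and 0.183).

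Across all genes the same fit called 253 of 337 genes (75.1%) higher in the mutant and 3 (0.89%) lower (limma, log2 difference beyond 1 and Benjamini-Hochberg adjusted p under 0.05). PMA1 and HXT1 are among those called higher, and FCY2 is called in neither direction. For 264 genes (78.3%), PMA1, HXT1 and FCY2 included, the lowest sua7-1 value was above the highest WT value. Since the group was chosen with this contrast known, nothing is read from 2 of 3 or 3 of 3. By the size of the log2 difference PMA1 stands at place 107, HXT1 at 179 and FCY2 at 300 of the 337 genes. The median gene had a difference of 2.44, so PMA1 lay 0.55 above the median gene, HXT1 0.10 below it and FCY2 1.95 below it.

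Dividing each library by its median RTI asks how the genes moved relative to each other. It scales WT values up and mutant values down, while the pseudocount of 0.002 stays the same. The pseudocount then weighs less on low WT values, so the size of the move also depends on the level of a gene. How much of each move this explains was not tested. This moves the log2 difference of the median gene by -2.64, to -0.20, and the fit then calls 22 genes higher and 52 lower. PMA1 kept a positive value of 0.37, while HXT1 turned to -0.93 and FCY2 to -2.82. Of the 3, FCY2 alone is called after this scaling, as lower. The fall is not particular to FCY2. STT3, YOR309C and RPL23A, the 3 genes most like it over the libraries, turned to -1.72, -2.94 and -2.10.

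The place of each gene within its library needs no scaling, and for HXT1 it did not go down as the scaled difference did. For PMA1, 26.9% to 38.4% of the genes of a WT library had a lower RTI, and 36.6% to 38.6% of the genes of a mutant library. PMA1 was thus below the median gene in every library. HXT1 stood above 81.4% to 87.1% of genes in the WT libraries and above 84.6% to 87.3% in the mutant libraries. These 2 genes kept about the same place while nearly the whole distribution was higher in the mutant. FCY2 stood above 90.5%, 91.6% and 94.6% of genes in WT replicates 1, 2 and 3 and above 88.5%, 68.3% and 77.4% in sua7-1 replicates 2, 3 and 4. Its places in the strains did not overlap, and it was lower among the genes of each mutant library than of any WT library.

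**Figure D2:**
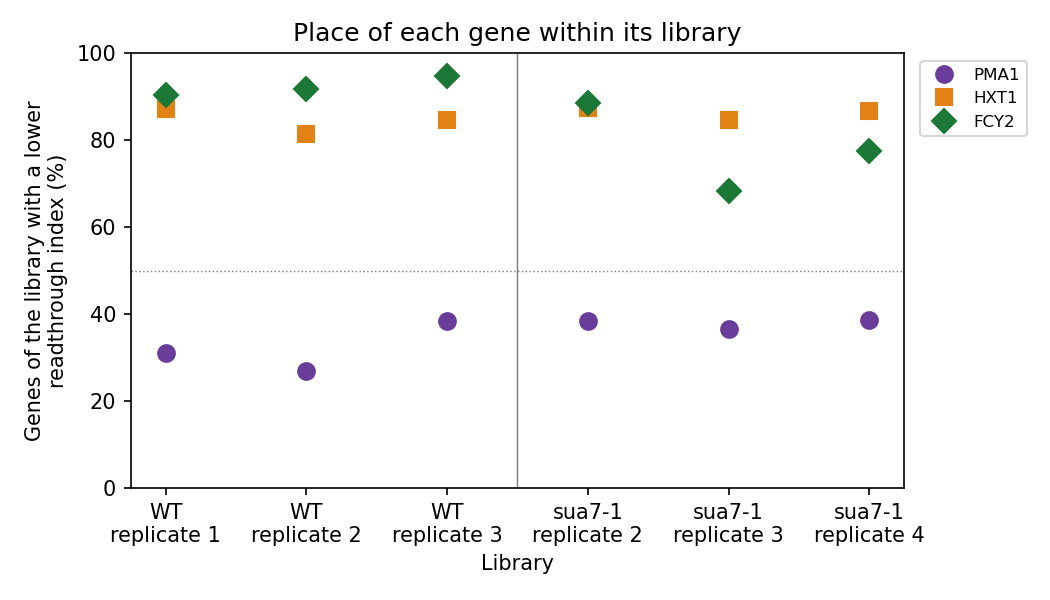
Share of the genes of a library with a lower readthrough index (vertical axis, percent) for PMA1, HXT1 and FCY2 in the 6 libraries that have a value for them. PMA1 stays between 26.9% and 38.6% and HXT1 between 81.4% and 87.3%, whereas FCY2 goes from 90.5% or more in WT to between 68.3% and 88.5% in sua7-1.

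Measured against the library median, the libraries of a strain came closer together for PMA1 and further apart for FCY2. For HXT1 they came closer together in WT but hardly in the mutant. The RTI of PMA1 was 0.35 to 0.63 times the library median in WT and 0.58 to 0.68 times in the mutant. That of HXT1 was 6.28 to 7.94 times the median in WT and 3.19 to 4.46 times in the mutant. The mutant RTI of HXT1, 0.184 to 0.271, had nearly the same spread in proportion. For FCY2 the ratio was 9.32 in WT replicate 1 and 30.3 and 33.8 in WT replicates 2 and 3, and between 2.08 and 4.88 in the mutant. The coefficient of variation of the RTI itself was 79.0% for PMA1, 77.0% for HXT1 and 19.0% for FCY2 in WT, and 37.2%, 19.0% and 8.76% in the mutant. WT replicate 1 gave the highest WT value for PMA1 and HXT1 but not for FCY2, and sua7-1 replicate 2 the lowest mutant value for PMA1 and HXT1 but the highest for FCY2. The RTI of FCY2 thus did not go up and down with its library as those of the other 2 did.

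Within a library the order of the genes was the same in all 3 WT libraries, with FCY2 highest, HXT1 next and PMA1 lowest. The WT ranges of the 3 genes did not overlap. In the mutant PMA1 was again lowest, but HXT1 and FCY2 did not differ beyond their spread, since HXT1 was higher in sua7-1 replicates 3 and 4 and FCY2 in replicate 2. FCY2 had 1.36, 4.82 and 4.26 times the RTI of HXT1 in WT replicates 1, 2 and 3, and 1.10, 0.651 and 0.743 times in sua7-1 replicates 2, 3 and 4. HXT1 had 12.7 to 17.9 times the RTI of PMA1 in WT and 5.04 to 7.63 times in the mutant. As ratios, HXT1 and FCY2 were thus closer to PMA1 in every mutant library than in any WT library. The differences of the mean RTI from that of PMA1 were not smaller in the mutant.

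Genes with a WT level like that of a member give a frame for its difference, though the WT values enter both quantities and the relation is a description only. Of the 34 other genes whose mean WT RTI was within 2-fold of that of FCY2, 11 were called higher and 3 lower, with a median log2 difference of 1.05, and 19 had a larger difference than FCY2. Around HXT1, 32 of 47 genes were called higher, with a median of 1.95, and 16 had a larger difference than HXT1. Around PMA1, 87 of 103 genes were called higher, with a median of 2.67, and 37 had a larger difference than PMA1. Each member thus lay inside the range of the genes that started from a similar level.

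**Figure D3:**
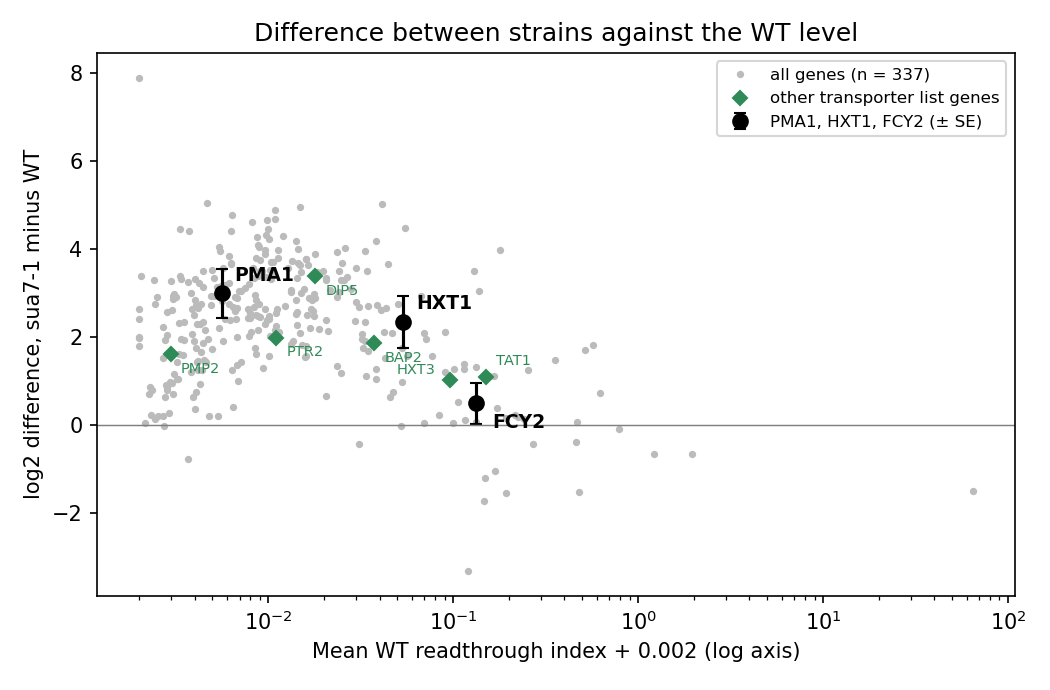
Difference between strains (vertical axis, log2(RTI + 0.002), sua7-1 minus WT) against the mean WT readthrough index plus 0.002 (log axis) for 337 genes in grey, the other measured genes of the transporter lists in green and PMA1, HXT1 and FCY2 in black with standard errors. PMA1 has a low WT level and a difference of 2.99, and FCY2 a high WT level and a difference of 0.49.

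Genes laid out like the members can be set beside them too. Of the 83 genes with no annotated gene within 500 nt after the stop codon, 54 (65.1%) were called higher and 1 lower, with a median log2 difference of 2.08. Of the other 248 genes, 196 (79.0%) were called higher and 2 lower, with a median of 2.55. The 54 of 83 genes include PMA1 and HXT1, and the median mean RTI in WT was 0.0126 in the first set and 0.00702 in the second. LEU1, the gene that follows PMA1 in tandem, was called higher as well, with an RTI of 0.0261, 0.00942 and 0.00694 in WT replicates 1, 2 and 3 and 0.0630, 0.113 and 0.0685 in sua7-1 replicates 2, 3 and 4. Its values did not overlap between strains. Both outcomes were common, with 75.1% of all 337 genes called higher and 78.3% without overlap in this direction.

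Few other plasma membrane transporter genes are among the 337 that the authors kept by length, spacing and read number. Of 105 genes in 5 lists chosen by function, 9 have an RTI, the members included. Without the members, 4 of the 6 others were called higher and the other 2 in neither direction, with a median log2 difference of 1.74, beside 75.1% and 2.44 over all 337 genes. After division by the library median, 2 of these 6 had a positive difference, with a median of -1.16, beside 150 of all 337 genes (44.5%) and a median of -0.20. The count is too small to set these genes apart from the rest.

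The pump list, 13 genes of P-type ATPases and Pma1 regulators, holds PMA1 and PMP2, a small proteolipid that associates with Pma1. PMP2 had a lower RTI than PMA1 in every library, with 0.00227, 0.000487 and 0.000146 in WT replicates 1, 2 and 3 and 0.00359, 0.0116 and 0.00669 in sua7-1 replicates 2, 3 and 4. Both genes were called higher, as were 75.1% of all 337 genes. Of 17 hexose transporter genes, HXT1 and HXT3 were measured. HXT3, the closest relative of HXT1 at its 3' coding end, had an RTI of 0.186, 0.0322 and 0.0657 in WT replicates 1, 2 and 3 and 0.128, 0.194 and 0.143 in sua7-1 replicates 2, 3 and 4. Unlike HXT1, its strains overlapped, through WT replicate 1, and it was called in neither direction with a log2 difference of 1.03 (standard error 0.63). Whether the paralogs differ from each other was not tested. FCY2 was the only measured gene of 12 permeases of purines, pyrimidines and vitamins.

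Of 20 amino acid permease genes, 3 were measured, and their WT levels and differences covered much of the range of the members. DIP5, for acidic amino acids, was called higher, with 0.0194, 0.0146 and 0.0140 in WT and 0.120, 0.271 and 0.195 in sua7-1, a log2 difference of 3.39. BAP2, for branched-chain amino acids, was called higher with 1.86, although WT replicate 1 (0.0819) lay above sua7-1 replicate 2 (0.0599). TAT1, for tyrosine and branched-chain amino acids, was called in neither direction with 1.09. Like FCY2 it had a high WT level, 0.148 on average, and mutant values all above those of WT. Over all 337 genes, 75.1% were called higher and 78.3% had every mutant value above every WT value. Of 43 other plasma membrane transporter genes, 1 was measured. This is PTR2, the di- and tripeptide transporter, which was called higher with 1.99 from 2 mutant and 4 WT libraries.

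The vacuolar proton pump, a V-type ATPase that acidifies the vacuole and is unrelated in structure to Pma1, was measured in 6 of 15 listed genes. VMA1, VMA2, VMA7 and VPH1 were called higher, with log2 differences of 1.82, 3.80, 3.77 and 2.73. VMA6, with 1.28 from 2 mutant libraries, and VMA11, with 0.38, were called in neither direction. The median of the list was 2.28, beside a median of 2.44 and 75.1% called higher over all 337 genes. After division by the library median, 2 of the 6 genes had a positive difference and the median was -0.85, again beside 44.5% and -0.20 over all genes. Of 10 glucose sensing genes, HXK2, hexokinase, was measured and called higher with 2.10. Of 10 genes of purine and pyrimidine salvage, ADO1, adenosine kinase, was measured and called higher with 2.65. Both were negative after the division by the library median, at -0.81 and -0.31.

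**Figure D4:**
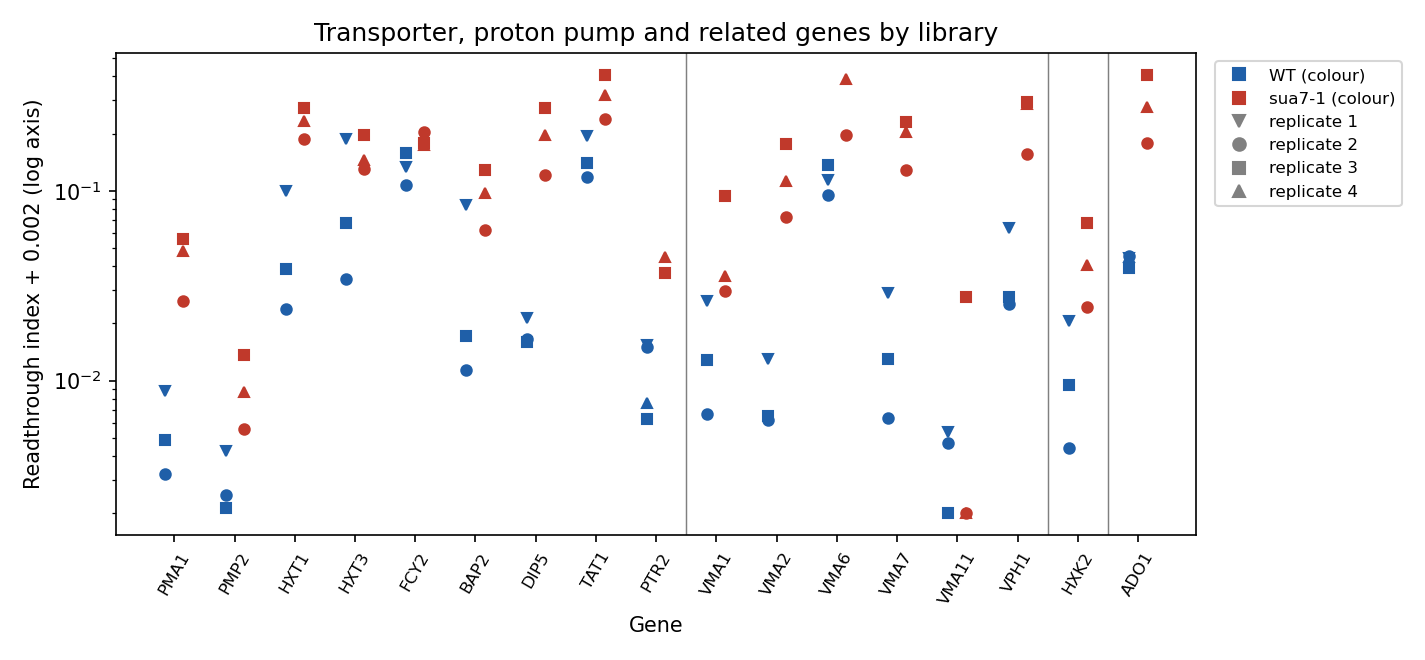
Readthrough index plus 0.002 (log axis) in each library for the measured genes of the lists, WT in blue and sua7-1 in red, with a marker shape per replicate number. Vertical lines separate the plasma membrane genes, the vacuolar proton pump, HXK2 and ADO1. FCY2, TAT1 and VMA6 have mean WT values above 0.1, and PMP2 has the lowest mean of the plasma membrane genes in both strains.

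The genes most like each member over the 6 libraries were found by the root mean square difference of log2(RTI + 0.002) among the 286 genes with a value in all of them. The members are not each other's nearest. For PMA1 they were RPS1B, a small-subunit ribosomal protein gene (0.18), SSB1, a ribosome-associated Hsp70 chaperone gene (0.23), and ERG11, of ergosterol synthesis (0.27). RPS1B had an RTI of 0.00567, 0.00116 and 0.00251 in WT and 0.0187, 0.0535 and 0.0406 in the mutant, almost the values of PMA1 library by library. For HXT1 they were VPH1, the vacuolar proton pump subunit (0.37), RPN2, a proteasome subunit gene (0.42), and SED1, a cell wall protein gene (0.60). VPH1 had 0.0618, 0.0234 and 0.0256 in WT and 0.155, 0.291 and 0.285 in the mutant. For FCY2 they were STT3, of N-glycosylation (0.49), YOR309C (0.50) and RPL23A, a large-subunit ribosomal protein gene (0.55). No gene followed FCY2 as closely as RPS1B followed PMA1, but these distances are not on the same footing. The pseudocount shrinks differences between low values like those of PMA1 in WT. PMA1 also has more genes within 2-fold of its mean WT RTI, 103 against 34 for FCY2. STT3 had 0.116, 0.0913 and 0.106 in WT and 0.173, 0.324 and 0.248 in the mutant, and its highest mutant library was replicate 3, the middle one for FCY2. Among the 285 other genes HXT1 stands at place 26 in likeness to FCY2 (1.26) and at place 237 to PMA1 (2.83). The libraries are shared by all genes, so likeness of this kind includes the shifts of whole libraries.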

How the data were processed

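The authors trimmed adapters with cutadapt, aligned reads to S. cerevisiae S288C R64 (aligner: not given in the sources used here) and deposited, per gene and library, the RTI, a ratio of downstream to upstream reads. The deposited table also holds strain means, a log2 ratio and a p-value of the authors, none of which was used. A second block of 168 rows, with none of the members, was left out, and 0 columns of values lacked a sample. Members were matched by systematic name, and 331 of 337 genes were found in the RefSeq R64 annotation, the assembly the authors name. All 337 genes were fitted with limma 3.58.1 (R 4.3.3) on the log2(RTI + 0.002) values in a model of strain alone. The script had first been tested on simulated data. These had the same SD for all genes, taken from the sua7-1 libraries, and no shift of whole libraries. That test thus does not cover the wider WT spread or such shifts. Calls needed a log2 difference beyond 1 and an adjusted p under 0.05. No RTI above 0 was equal in any of 21 library pairs. Sequences were read with Python 3.11.15 and Biopython 1.88. Identities came from global alignments.

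The members and lists were chosen with earlier results of these data known. The genes named were the members, their downstream neighbours and closest paralogs, every measured gene of lists with 10 or fewer measured, and the 3 genes most like each member. Alternatives were pseudocounts of 0.0005 and 0.01, only genes with a value in every library except WT replicate 4, exact zeros left out, limma with trend and robust set, division by the library median RTI (then multiplied by the mean of the medians), leaving out single libraries, and a block for replicate number.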

Additional observations from a re-analysis of the deposited data

Results flagged for a closer look

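The number of genes with an RTI in WT replicate 4, 38, stood apart from the other WT libraries, which had 325 or more. None of PMA1, HXT1 and FCY2 has a value in it. Among the listed genes, ADO1 had a WT value of 0.0372 in replicate 3, below the other 3 WT libraries, which lay between 0.0424 and 0.0432. Chance alone gives such a gap in about 1 group in 20 (5 in 100), and few listed genes have 4 WT values. The groups of 3 values that the members have were not examined in this way.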

How the results depend on the processing

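PMA1 and HXT1 were called higher under 13 of 14 alternatives each, the exception being division by the library median, and FCY2 was called in neither direction under 13 and lower under that one. With this division the log2 differences were 0.37 for PMA1, -0.93 for HXT1 and -2.82 for FCY2, and 22 genes were called higher and 52 lower. By construction it removes the shift shared by all genes of a library. It also changes the weight of the pseudocount, so genes of different levels do not move by the same amount. The pseudocount of 0.01 gave PMA1 1.88 and 5 genes called lower, and zeros as missing also gave 5. Leaving out each library in turn gave 213 to 277 genes called higher, 2 to 4 called lower, and log2 differences of 2.65 to 3.38 for PMA1, 1.89 to 2.91 for HXT1 and 0.35 to 0.62 for FCY2. With the replicate block, 261 genes were called higher and 4 lower, and no call of a member changed. The members have no zero and no value in WT replicate 4. Complete genes only, zeros as missing and leaving out that library thus could not move their log2 differences. The trend and robust options change only the error. Since the members were chosen with this contrast known, the count of alternatives is a description and adds no support. Same-numbered libraries did not deviate together gene by gene (correlations across genes of 0.13, -0.02 and -0.03 for replicates 2, 3 and 4). Differently numbered pairs gave -0.20 to 0.22. A shift shared by all genes of a library would not show in these correlations, so they cannot tell whether the numbers pair the libraries. Without read numbers, no RTI can be set against its depth.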
